A study of Mus musculus with 4 samples.

Results

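The collagen gene family was taken as every gene in the count table whose symbol has the form Col, a number, a and a number, which found 44 of 55487 genes. Each such gene encodes an alpha chain of 1 collagen type, and the genes were placed in the structural classes fibrillar, basement membrane, beaded filament, FACIT, transmembrane and multiplexin, with the remaining chains together as other collagens. Of the 44 genes, 43 had enough counts to be tested, and Col10a1, the hypertrophic cartilage collagen, had 0 and 5 counts in the aged libraries and 2 and 0 in the young libraries and was not tested. The comparison was whole mammary fat pad (MFP) of aged mice, 14 months old, with whole MFP of young mice, 8 weeks old, with 2 libraries at each age, which the labels call biological replicates without saying whether each was 1 animal. The labels give the strain of both ages as c57b/6j and no other treatment. The methods of the study describe female mice and name both the J substrain and, for the fat pad injections, the substrain C57BL/6NCrl, and do not say which was sequenced here. The study examined the adipocyte-rich MFP as a site of melanoma growth and compared that tissue between ages.

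Collagens are triple helices of 3 alpha chains that are made in the endoplasmic reticulum, hydroxylated, folded with the help of chaperones, secreted, trimmed and crosslinked. Fibrillar collagens give tissue its tensile strength, collagen IV forms the sheet of the basement membrane that surrounds each adipocyte, vessel and mammary duct, and collagen VI forms beaded microfilaments near basement membranes and is abundant in fat. FACIT collagens sit on the surface of fibrils, transmembrane collagens are anchored in the plasma membrane, and multiplexins lie in basement membrane zones. Fibroblasts and adipocyte progenitors make most fibrillar collagen of a tissue, while adipocytes, endothelial cells and epithelial cells also make collagen IV.

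Total counts lay between 68803304 and 98402403 per library, at which 3 counts correspond to 0.0337 to 0.0407 CPM (counts of a gene relative to the library total, scaled between libraries by TMM, the trimmed mean of M-values). Marker genes of adipocytes, which define the tissue, summed to 11012 and 7644 CPM in the aged libraries and 6650.4 and 6555 CPM in the young libraries. Those of mammary epithelium summed to 1597 and 1547 CPM in the aged libraries and 858 and 1877 CPM in the young libraries, so both parts of a fat pad were seen in every library. Skeletal muscle markers summed to 41773 and 66559.8 CPM in the aged libraries and 10747 and 15033 CPM in the young libraries. All 12 of 12 had both aged libraries above both young libraries, beside 23.3% of all genes. Of the 10 stromal fibroblast markers, 9 were tested and 7 had a log2 fold change above 0, and Tcf21 was at 0 counts in 3 libraries. Their sum was 6397 and 3824 CPM in the aged libraries and 2438 and 1829.8 CPM in the young libraries, most of it from Gsn, at 5979 and 3493 CPM in the aged libraries and 2165 and 1475 CPM in the young libraries. The fibroblast marker Pdgfra was at 135 and 97.4 CPM in the aged libraries and 60.1 and 80.4 CPM in the young libraries. The 2 fibroblast markers with a log2 fold change below 0 were Dpp4 and Pi16, at -1.79 and -1.14. Dpp4 was at 7.33 and 10.7 CPM in the aged libraries and 49.0 and 13.2 CPM in the young libraries. Pi16 was at 19.4 and 17.3 CPM in the aged libraries and 12.1 and 68.5 CPM in the young libraries. All 12 cell division markers had a log2 fold change below 0, beside 53% of all genes. The cell division markers summed to 27.4 and 56.2 CPM in the aged libraries and 157 and 57.8 CPM in the young libraries. In bulk tissue, fewer cells of a type and less RNA per cell cannot be told apart, and the part of these cell populations in the collagen values below was not tested.

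Collagen genes took up a smaller share of the RNA in the aged MFP. Their counts made up 0.594% and 0.387% of all counts in the aged libraries and 0.837% and 0.955% in the young libraries, and the groups did not overlap. The mean share was 0.490% at 14 months and 0.896% at 8 weeks, a ratio of 0.547. This ratio was 0.567 when the skeletal muscle markers were left out of the library total, 0.432 without aged replicate 1 and 0.663 without aged replicate 2. With 2 libraries against 2, the smallest two-sided p of an exact permutation test is 0.333, so the share was not tested.

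The lower share was unevenly spread over the classes. Of all counts, fibrillar collagens were 0.253% and 0.167% in the aged libraries and 0.493% and 0.570% in the young libraries, with both aged libraries below both young ones. Basement membrane collagens contributed 0.156% and 0.102% in the aged libraries and 0.163% and 0.166% in the young libraries, where aged replicate 1 lay close to the young libraries and aged replicate 2 below them. Beaded filament collagens contributed 0.109% and 0.0620% in the aged libraries and 0.0975% and 0.0996% in the young libraries, and here aged replicate 1 was the highest and aged replicate 2 the lowest of the 4. Among collagen counts alone, which do not depend on the scaling between libraries, the fibrillar class made up 42.6% and 43.1% in the aged libraries and 59.0% and 59.7% in the young libraries. The basement membrane class made up 26.2% and 26.3% against 19.5% and 17.3%, the beaded filament class 18.4% and 16.03% against 11.7% and 10.4% and the multiplexins 7.19% and 7.10% against 6.62% and 5.96% of collagen counts, in each case with both aged libraries above both young ones. FACIT collagens took 3.10% and 4.38% against 1.93% and 3.78%, transmembrane collagens 0.969% and 1.44% against 0.268% and 0.618% and the other collagens 1.51% and 1.67% against 1.03% and 2.22%. The chains of collagens I and III alone, Col1a1, Col1a2 and Col3a1, accounted for 32.5% and 32.7% of collagen counts in the aged libraries and 46.8% and 48.1% in the young libraries. These shares are a description, since shares of 1 total move against each other.

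**Figure D1:**
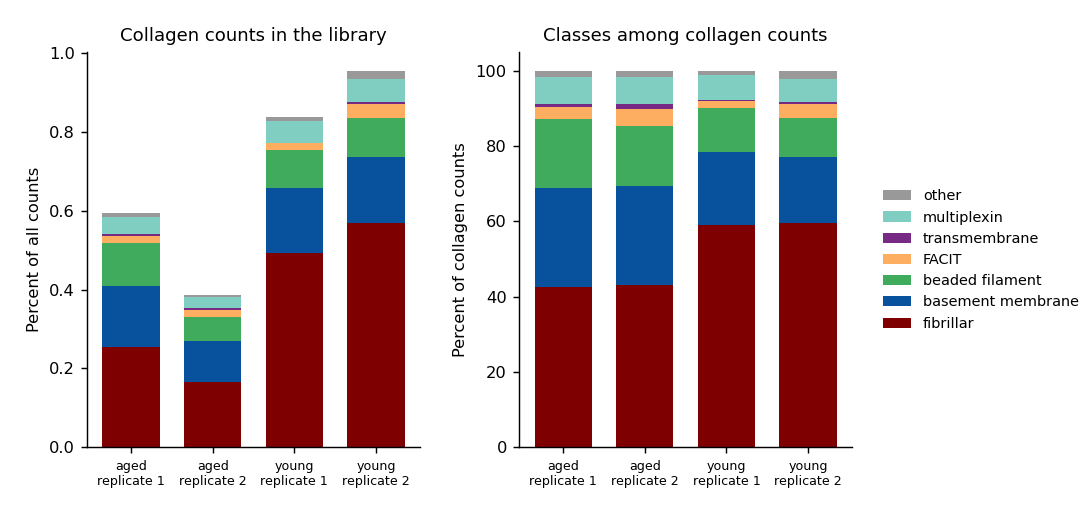
Percent of all counts (left) and percent of collagen counts (right) on each collagen class in the 4 MFP libraries, drawn as stacked bars from 0. Fibrillar collagens take 42.6% and 43.1% of collagen counts in the aged bars and 59.0% and 59.7% in the young bars.

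Gene by gene, the quasi-likelihood test of edgeR, with p adjusted by Benjamini-Hochberg over all 22485 genes tested, called 0 collagen genes at an adjusted p of 0.05, as it called 0% of all genes in either direction, and the smallest adjusted p of a collagen gene was 0.360. At an unadjusted p under 0.05 the same test had 10 collagen genes lower and 2 higher in aged MFP, beside 3.31% of all genes lower and 7.24% higher. The count lower was 17 without young replicate 1 and 5 without aged replicate 2, and the count higher was 9 without young replicate 2 and 0 without either aged replicate. DESeq2, run as an alternative, called 5 collagen genes lower and 0 higher at an adjusted p of 0.05, beside 0.642% of all genes lower and 3.03% higher. Both aged libraries lay below both young libraries for 16 of the 43 genes and above them for 8, beside 22.8% and 23.3% of all genes. The log2 fold change of aged over young MFP was below 0 for 28 of the 43 genes, beside 53% of all genes, and its median was -0.29 over the collagen genes and -0.036 over all genes. Scaling by total counts alone moved the median of all genes to -0.22.

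**Figure D2:**
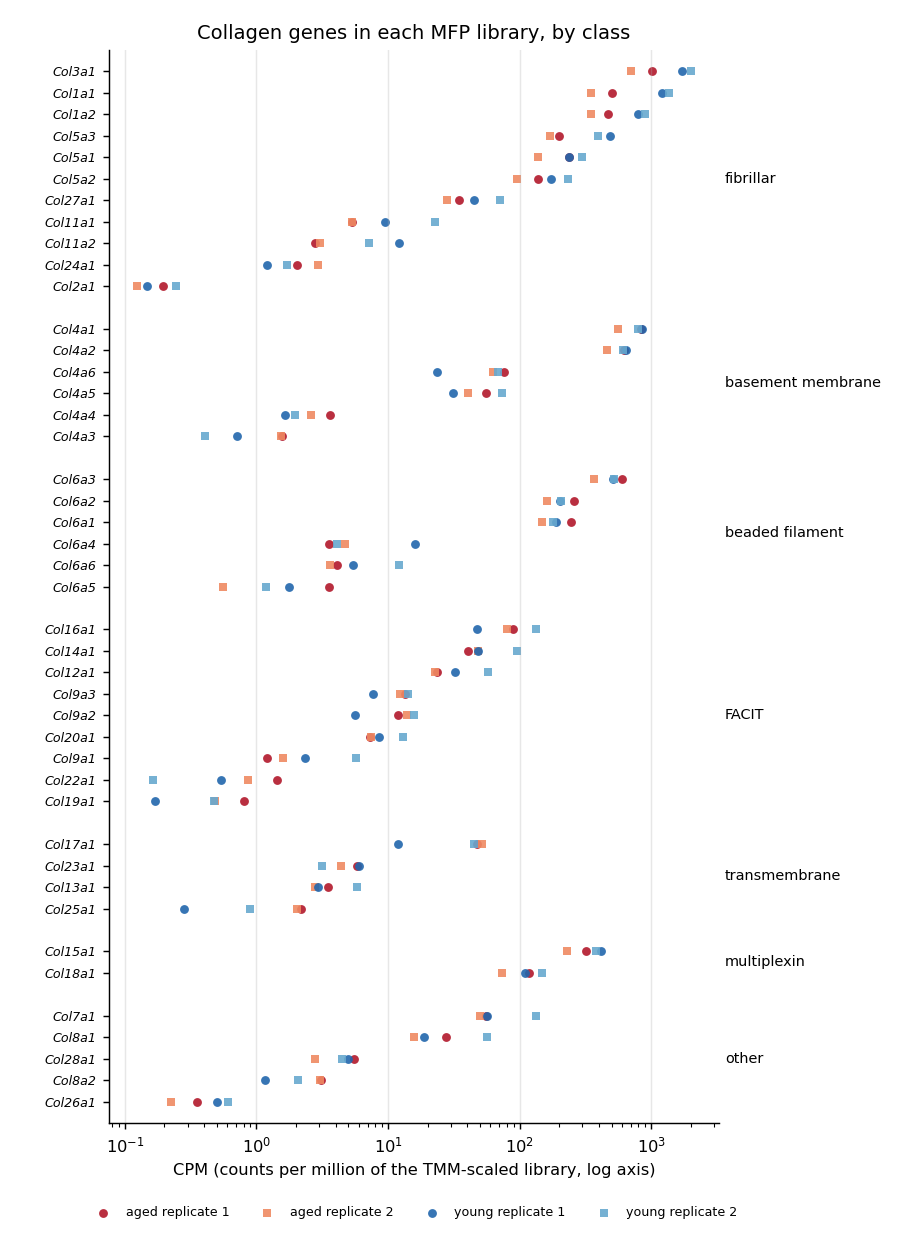
Level of the 43 collagen genes tested in each of the 4 MFP libraries, in CPM on a log axis, grouped by class and ordered within a class by mean level in CPM, which is not corrected for gene length. Red and orange points are aged and blue points young libraries. Aged points lie left of young points for most fibrillar collagens and are mixed with them in the basement membrane and beaded filament classes.

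Fibrillar collagens had the lowest median log2 fold change of the 7 classes. Of its 11 genes, 10 had a log2 fold change below 0, beside 53% of all genes. Both aged libraries lay below both young ones for 9, beside 22.8% of all genes. At an unadjusted p under 0.05, 8 were lower, beside 3.31% of all genes, and none passed the adjusted threshold of edgeR's quasi-likelihood test. DESeq2 called 5 of the 11 lower, beside 0.642% of all genes. The class median was -1.05 on the log2 scale, and between -1.29 and -0.82 when 1 library was left out. The summed level was 2597 and 1840.4 CPM in the aged libraries and 4675 and 5309.8 CPM in the young libraries.

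Col1a1 (ENSMUSG00000001506, GRCm38 chr11:94936224-94953042, plus strand) encodes the alpha1 chain of collagen I, the main fibrillar collagen of skin, tendon and bone, and was at 503 and 349.7 CPM in the aged libraries and 1213 and 1368 CPM in the young libraries. The mean level was 426 ± 108 CPM in the aged MFP and 1291 ± 109.6 CPM in the young MFP (SD, n = 2 each). Each young library was above each aged library, and the spread within an age was small beside the gap. The young level was 3.03 times the aged level, a log2 fold change of -1.60 ± 0.27 (SE), with an adjusted p of 0.360 by edgeR's quasi-likelihood test and 2.05e-05 by DESeq2. Of all genes tested, 4.54% had a lower log2 fold change than Col1a1, which lay between -1.90 and -1.36 when each library was left out in turn. Its partner Col1a2 (ENSMUSG00000029661, chr6:4504814-4541544, plus strand), the alpha2 chain that completes the collagen I trimer, was at 468 and 351 CPM in the aged libraries and 796 and 902 CPM in the young libraries. The groups were again apart, with a log2 fold change of -1.05 ± 0.23 (SE) and an adjusted p of 0.400 by edgeR and 0.00719 by DESeq2. Col3a1 (ENSMUSG00000026043, chr1:45311538-45349706, plus strand), the homotrimeric collagen of extensible tissues that forms mixed fibrils with collagen I, was at 1009 and 696 CPM in the aged libraries and 1702 and 2012 CPM in the young libraries. Again the ages were apart, and the log2 fold change was -1.12 ± 0.30 (SE), with an adjusted p of 0.417 by edgeR and 0.0140 by DESeq2. On the same strand, Col3a1 overlaps the annotated gene Gm47302, and reads in the shared part cannot be assigned to either with certainty.

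The start regions of Col1a2 and Col3a1 are shown because these collagen I and III chains gave some of the largest level differences of the family. Each window holds the 250 bases before and 50 bases from the transcription start in RefSeq on GRCm38.p6, read 5′ to 3′ on the gene's own strand. Capitals mark the letters CCAAT, or ATTGG where CCAAT lies on the opposite strand, the binding motif of the factor NF-Y, and the letters TATAAA of a TATA box. The Col1a2 window spans chr6:4505368-4505667 on the plus strand, and the Col3a1 window spans chr1:45311288-45311587 on the plus strand.
Col1a2: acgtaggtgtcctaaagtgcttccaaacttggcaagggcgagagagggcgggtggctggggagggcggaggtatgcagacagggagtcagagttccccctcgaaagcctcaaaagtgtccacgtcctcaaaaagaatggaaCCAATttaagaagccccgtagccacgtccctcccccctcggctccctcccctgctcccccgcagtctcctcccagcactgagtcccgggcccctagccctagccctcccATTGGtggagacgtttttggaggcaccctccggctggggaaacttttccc
Col3a1: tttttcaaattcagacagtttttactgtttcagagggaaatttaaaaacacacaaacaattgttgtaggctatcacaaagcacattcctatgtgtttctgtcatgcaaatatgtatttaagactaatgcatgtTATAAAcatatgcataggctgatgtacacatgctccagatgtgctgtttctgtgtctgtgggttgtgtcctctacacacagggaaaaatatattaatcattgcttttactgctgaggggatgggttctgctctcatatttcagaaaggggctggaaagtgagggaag
The Col1a2 window held CCAAT at 2 places, and the Col3a1 window held TATAAA at 1 place and no CCAAT. Searched on both strands, CCAAT was in 3 of the 8 fibrillar windows, 37.5%, and in 37.4% of all 32851 windows of the same length. Over the 38 windows of the 35 collagen genes with an entry, CCAAT was in 34.2% and TATAAA in 13.2%, beside 13.6% of all windows for TATAAA.

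Collagen V regulates the start of fibril assembly, and all 3 of its chains had lower mean levels in aged MFP. Col5a3 (chr9:20770050-20815067, minus strand), the alpha3 chain, which has a restricted distribution among tissues, was at 199 and 171 CPM in the aged libraries and 486 and 391 CPM in the young libraries. It was lower in both aged libraries, with a log2 fold change of -1.25 ± 0.20 (SE) and an adjusted p of 0.360 by edgeR and 1.02e-04 by DESeq2. Of the common chains, Col5a1 was at 235 and 138 CPM in the aged libraries and 239 and 298 CPM in the young libraries. Col5a2 was at 137 and 95.3 CPM in the aged libraries and 172 and 235 CPM in the young libraries. The ages did not overlap for either gene, though for Col5a1 aged replicate 1 lay just below young replicate 1. Their log2 fold changes were -0.52 ± 0.32 (SE) and -0.81 ± 0.27 (SE), with adjusted p of 0.559 and 0.461 by edgeR. Col5a1 overlaps 2810430I11Rik and Gm13372 on the other strand.

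The minor fibrillar collagens had fewer counts. Col11a1, a chain of the cartilage fibril collagen XI that also occurs in other tissues, was at 5.28 and 5.33 CPM in the aged libraries and 9.45 and 22.8 CPM in the young libraries. Its partner Col11a2 was at 2.80 and 3.03 CPM in the aged libraries and 12.1 and 7.14 CPM in the young libraries. Neither overlapped between ages, and the young libraries differed from each other more than the aged ones did. The log2 fold changes were -1.60 ± 0.48 (SE) and -1.72 ± 0.35 (SE), with edgeR adjusted p of 0.436 and 0.376 and DESeq2 adjusted p of 0.0513 and 0.00106. Without young replicate 2 the Col11a1 value was -0.82. Col27a1, a fibrillar collagen of cartilage growth, was at 34.5 and 28.2 CPM in the aged libraries and 44.7 and 71.0 CPM in the young libraries, a log2 fold change of -0.89 ± 0.29 (SE). Col24a1 was the single fibrillar gene with both aged libraries above both young ones, at 2.03 and 2.93 CPM in the aged libraries and 1.20 and 1.72 CPM in the young libraries. Col2a1, the cartilage fibril collagen, was near the limit of detection at 0.196 and 0.124 CPM in the aged libraries and 0.146 and 0.244 CPM in the young libraries. Of 10 cartilage and bone markers, 6 were below the filter, among them Acan, the main cartilage proteoglycan, at 1 and 0 counts in the aged libraries and 3 and 2 in the young libraries. The list summed to 62.4 and 49.0 CPM in the aged libraries and 19.7 and 62.2 CPM in the young libraries, most of it from Sox9, a factor of cartilage and of epithelia, at 55.9 and 45.2 CPM in the aged libraries and 15.9 and 51.5 CPM in the young libraries.

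**Figure D3:**
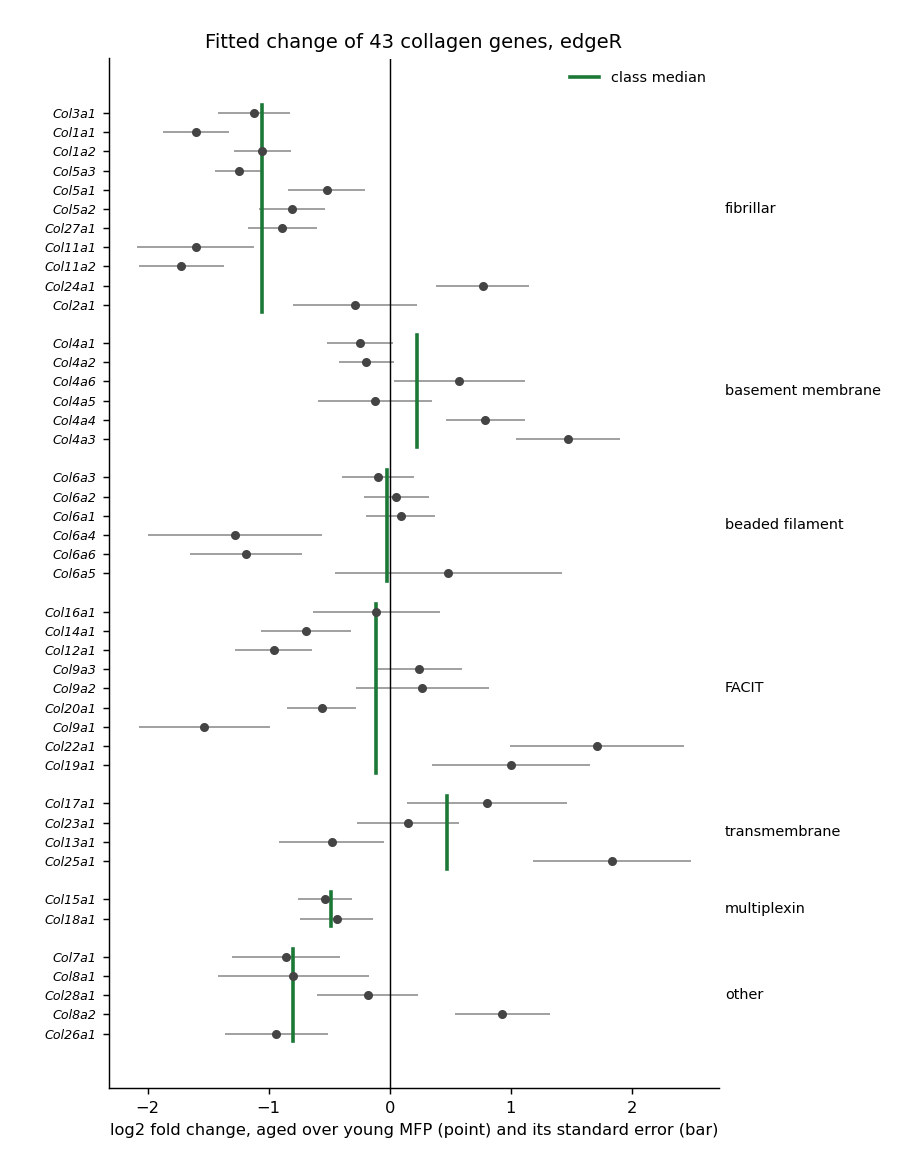
Log2 fold change of aged over young MFP with its standard error (bars) for the 43 collagen genes tested, grouped by class, with the class median as a green line and 0 as a black line. Fibrillar collagens lie mostly left of 0, Col1a1 at -1.60 and the median at -1.05, while the bars of Col4a1, Col6a1, Col6a2 and Col6a3 cross 0.

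Basement membrane collagens lay on both sides of 0, 3 of the 6 genes above and 3 below, with a median of 0.23 that ran from -0.078 without young replicate 1 to 0.78 without young replicate 2. Col4a1, the alpha1 chain of the common collagen IV trimer, was at 835 and 556 CPM in the aged libraries and 853 and 792 CPM in the young libraries. The alpha2 chain Col4a2 was at 626 and 462 CPM in the aged libraries and 638 and 607 CPM in the young libraries. In both genes aged replicate 1 lay among or close to the young libraries and aged replicate 2 was the lowest of the 4. Their log2 fold changes were -0.24 ± 0.27 (SE) and -0.20 ± 0.23 (SE), with edgeR adjusted p of 0.718 and 0.725. The sign rests on aged replicate 2, without which the values were 0.022 and 0.0077. Endothelial markers, of cells that make collagen IV, summed to 1093 and 812 CPM in the aged libraries and 761 and 883 CPM in the young libraries with overlapping ranges.

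Col4a1 (chr8:11198423-11312826, minus strand) and Col4a2 (chr8:11312805-11449287, plus strand) are annotated head to head with their starts 21 bp apart, so that their first bases overlap on opposite strands, and Col4a2 also overlaps Gm15419. The starts are shown because the gene pair shares this short region. RefSeq windows span chr8:11312777-11313076 on the minus strand and chr8:11312555-11312854 on the plus strand, each read 5′ to 3′ on its own strand, with CCAAT or ATTGG in capitals.
Col4a1: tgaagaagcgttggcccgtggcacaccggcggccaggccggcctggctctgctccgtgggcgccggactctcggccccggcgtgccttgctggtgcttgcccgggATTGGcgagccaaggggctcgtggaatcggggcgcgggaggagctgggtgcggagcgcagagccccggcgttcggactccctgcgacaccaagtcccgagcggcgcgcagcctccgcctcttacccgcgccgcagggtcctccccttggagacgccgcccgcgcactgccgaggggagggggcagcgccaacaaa
Col4a2: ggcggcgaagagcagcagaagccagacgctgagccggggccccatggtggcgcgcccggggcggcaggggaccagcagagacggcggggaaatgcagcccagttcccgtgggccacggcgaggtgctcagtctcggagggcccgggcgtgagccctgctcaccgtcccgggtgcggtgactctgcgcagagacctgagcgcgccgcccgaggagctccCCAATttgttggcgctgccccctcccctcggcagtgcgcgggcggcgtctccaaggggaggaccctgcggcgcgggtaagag
The windows share 78 bases, chr8:11312777-11312854, and each holds the CCAAT letters 1 time. Of the 5 basement membrane windows in the table, 3 held CCAAT.

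The other collagen IV chains are expressed from 2 more head-to-head pairs. Col4a3 and Col4a4, chains of the glomerular and alveolar basement membrane, have starts 72 bp apart. Col4a3, which overlaps C430014B12Rik, was at 1.58 and 1.53 CPM in the aged libraries and 0.708 and 0.407 CPM in the young libraries. Col4a4 was at 3.61 and 2.62 CPM in the aged libraries and 1.65 and 1.95 CPM in the young libraries. Both genes were higher in both aged libraries than in either young one, with log2 fold changes of 1.47 ± 0.43 (SE) and 0.79 ± 0.33 (SE) and edgeR adjusted p of 0.431 and 0.5003. Col4a3 had the only unadjusted p under 0.05 of the class, 0.0250 by edgeR's quasi-likelihood test over all genes. Col4a5 and Col4a6, chains of smooth muscle and epithelial basement membrane, lie on chromosome X with starts 1309 bp apart. Col4a5 was at 55.4 and 40.3 CPM in the aged libraries and 31.0 and 73.1 CPM in the young libraries. Col4a6 was at 75.4 and 62.3 CPM in the aged libraries and 23.8 and 68.6 CPM in the young libraries. Young replicate 1 was the lowest library for both, less than the other young library by more than 1 on the log2 scale, and the ages overlapped. Young replicate 1 was also the lowest library for the mammary epithelial markers, at 858 CPM against 1877 CPM in young replicate 2, and the part of this in Col4a5 and Col4a6 was not tested.

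The 3 abundant chains of collagen VI, the beaded filament collagen of adipose tissue, lay in overlapping ranges at the 2 ages. Col6a1 (chr10:76708792-76726168, minus strand) was at 246 and 148 CPM in the aged libraries and 189.8 and 180.4 CPM in the young libraries. Col6a2 (chr10:76595762-76623630, minus strand) was at 259.7 and 163 CPM in the aged libraries and 202 and 205 CPM in the young libraries. Col6a3 (chr1:90765923-90843971, minus strand), the large chain whose cleaved end is the adipokine endotrophin, was at 604 and 365 CPM in the aged libraries and 509 and 526 CPM in the young libraries. For each of the 3 genes aged replicate 1 was the highest library, aged replicate 2 the lowest, and the young libraries lay between. The log2 fold changes were 0.091 ± 0.29 (SE), 0.055 ± 0.27 (SE) and -0.094 ± 0.30 (SE), with edgeR adjusted p of 0.904, 0.941 and 0.904. Without aged replicate 1 Col6a1 and Col6a2 were at -0.34 and -0.33, without aged replicate 2 Col6a3 was at 0.22, and scaling by total counts alone put Col6a1 and Col6a2 at -0.076 and -0.11. Col6a4, Col6a5 and Col6a6, chains that can stand in for Col6a3, had fewer counts, and the class median of -0.020 ran from -0.81 without aged replicate 1 to 0.29 without aged replicate 2. Col6a6 was lower in both aged libraries, at 4.07 and 3.65 CPM in the aged libraries and 5.42 and 12.2 CPM in the young libraries, with a log2 fold change of -1.19 ± 0.46 (SE) and an edgeR adjusted p of 0.488. Col6a4 was at 3.56 and 4.72 CPM in the aged libraries and 15.98 and 4.08 CPM in the young libraries, where young replicate 1 alone was high and the log2 fold change of -1.28 became 0.020 without it. Col6a5 was at 3.55 and 0.561 CPM in the aged libraries and 1.76 and 1.18 CPM in the young libraries, with the widest gap between aged replicates among the 43 genes tested. Col6a4 overlaps Gm36993 and Gm47575, and Col6a6 overlaps Gm38314, on the other strand.

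FACIT collagens had a median of -0.11, which ran from -0.67 without young replicate 1 to 0.77 without young replicate 2. Col16a1 and Col14a1, which bind fibrils and matrix glycoproteins, carried most counts of the class. Col16a1 was at 89.0 and 79.5 CPM in the aged libraries and 47.5 and 134 CPM in the young libraries. Col14a1 was at 40.2 and 48.4 CPM in the aged libraries and 48.1 and 94.9 CPM in the young libraries. The young libraries spanned the aged ones for Col16a1 and the ages overlapped for Col14a1, with log2 fold changes of -0.11 ± 0.53 (SE) and -0.69 ± 0.37 (SE). Col12a1, a fibril surface collagen of dense connective tissue, was at 23.4 and 22.8 CPM in the aged libraries and 32.5 and 57.5 CPM in the young libraries, lower in both aged libraries, with a log2 fold change of -0.96 ± 0.32 (SE). Col9a1, a chain of the cartilage collagen IX, was at 1.21 and 1.58 CPM in the aged libraries and 2.35 and 5.73 CPM in the young libraries, with a log2 fold change of -1.53 ± 0.54 (SE). Col22a1, a collagen of tissue junctions such as that of muscle and tendon, lay the other way at 1.44 and 0.865 CPM in the aged libraries and 0.537 and 0.163 CPM in the young libraries, with a log2 fold change of 1.71 ± 0.72 (SE) and an edgeR adjusted p of 0.501, and it overlaps Gm16308. Of the 8 markers of tendon and the myotendinous junction, 7 were tested and 5 had a log2 fold change above 0. Both aged libraries lay above both young ones for 4, beside 23.3% of all genes. The median of these markers was 1.37. Their sum, most of it from Tnc, was 38.2 and 37.9 CPM in the aged libraries and 39.9 and 24.9 CPM in the young libraries, while Ankrd1 was at 2.94 and 5.51 CPM in the aged libraries and 0.171 and 0.501 CPM in the young libraries. Skeletal muscle markers were also higher in both aged libraries, and the part of either list in the Col22a1 value was not tested. Col19a1, Col20a1, Col9a2 and Col9a3 had log2 fold changes of 1.00, -0.56, 0.27 and 0.24. Col21a1 was in the class list, but no gene of that symbol was among the deposited counts.

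Of the 4 transmembrane collagens, 3 had a log2 fold change above 0, and the class median was 0.48. Col25a1, a collagen that is needed for motor innervation of muscle, was at 2.18 and 2.02 CPM in the aged libraries and 0.281 and 0.894 CPM in the young libraries. Both aged libraries were above both young ones, and the young libraries differed by more than the aged ones. Its log2 fold change of 1.84 ± 0.65 (SE) was larger than that of 97.2% of all genes. The unadjusted p was 0.0462 and the adjusted p 0.467 by edgeR's quasi-likelihood test over all genes. Skeletal muscle markers were higher in both aged libraries, and their part in the Col25a1 value was not tested. Col17a1, the hemidesmosome collagen of basal epithelial cells, was at 47.5 and 52.1 CPM in the aged libraries and 11.98 and 45.2 CPM in the young libraries, with a log2 fold change of 0.80 ± 0.66 (SE). Both aged libraries were above both young ones, and young replicate 1 was by far the lowest. The basal epithelial marker Krt5 was low in the same library, at 74.9 and 86.2 CPM in the aged libraries and 12.1 and 50.9 CPM in the young libraries, and the part of these cells was not tested. Col23a1 was at 5.83 and 4.38 against 6.05 and 3.14 CPM (aged against young), with overlapping ages and a log2 fold change of 0.15 that was -0.082 without aged replicate 1, -0.23 without young replicate 2 and -0.018 when scaled by total counts alone. Col13a1 was at 3.49 and 2.78 against 2.93 and 5.81 CPM (aged against young), also with overlapping ages. Without young replicate 2 the class median was 1.09.

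Both multiplexins had lower mean levels in aged MFP, with a median of -0.49 that was -0.82 without aged replicate 1 and -0.22 without aged replicate 2. Col15a1 (chr4:47208161-47313167, plus strand), a collagen of basement membrane zones around muscle, vessels and adipocytes, was at 321 and 230.2 CPM in the aged libraries and 415 and 382 CPM in the young libraries. Col18a1, the source of endostatin, was at 117 and 73.2 CPM in the aged libraries and 109.8 and 148 CPM in the young libraries. The ages did not overlap for Col15a1 and did for Col18a1, with log2 fold changes of -0.53 ± 0.22 (SE) and -0.44 ± 0.30 (SE) and edgeR adjusted p of 0.501 and 0.583. Col15a1 overlaps Gm12426 on the other strand.

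Among the other collagens, Col7a1, which forms anchoring fibrils under stratified epithelium, was at 55.6 and 49.7 CPM in the aged libraries and 56.7 and 134 CPM in the young libraries. Col8a1, a network collagen of vessel walls, was at 27.5 and 15.7 CPM in the aged libraries and 18.7 and 56.2 CPM in the young libraries. In both genes young replicate 2 was the highest library by a wide margin, and without it the Col8a1 log2 fold change of -0.79 became 0.22 and the median of these collagens, -0.79, became -0.095. Col7a1 overlaps Mir711 on the same strand. Col8a2, the other chain of collagen VIII, was at 3.12 and 3.03 CPM in the aged libraries and 1.17 and 2.06 CPM in the young libraries, higher in both aged libraries, with a log2 fold change of 0.93 ± 0.39 (SE). Col26a1 was at 0.355 and 0.225 CPM in the aged libraries and 0.5001 and 0.610 CPM in the young libraries, lower in both aged libraries, with a log2 fold change of -0.94 ± 0.42 (SE), and Col28a1 was at 5.55 and 2.77 against 4.98 and 4.47 CPM (aged against young).

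By the median gene, replicates differed by more in young than in aged MFP. Over the 43 genes, the median absolute log2 difference between replicates was 0.417 in the aged pair and 0.761 in the young pair. It passed 1 for 1 gene in the aged pair, Col6a5, and for 14 genes in the young pair, of which 12 were lower and 2, Col22a1 and Col6a4, higher in young replicate 1. The 6 fibrillar genes with most counts, Col1a1, Col1a2, Col3a1, Col5a1, Col5a2 and Col5a3, differed by less than 1 in the young pair. All of these but Col5a3 differed by more in the aged pair, as did Col4a1, Col4a2, Col6a1, Col6a2 and Col6a3. The log2 difference was 0.587 in the aged pair and 0.107 in the young pair for Col4a1. For Col6a1 it was 0.737 in the aged pair and 0.0731 in the young pair.

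Ratios between chains were compared within each library, where the scaling between libraries plays no part, as counts divided by the length of the longest coding transcript, a length chosen after seeing the data in place of merged exons. The collagen I trimer holds 2 alpha1 chains and 1 alpha2 chain. The ratio of Col1a1 to Col1a2 was 0.969 and 0.899 in the aged libraries and 1.38 and 1.37 in the young libraries. The aged libraries were both below the young ones, an aged minus young difference of -0.56 on the log2 scale, so that Col1a1 was lower relative to its partner as well as lower in level. Over the merged exons of each gene the ratios were 2.03 and 1.89 against 2.89 and 2.87 (aged against young), since extra annotated isoforms lengthen Col1a2. The difference between ages is the same with either length.

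Col3a1 to Col1a1 stood at 2.14 and 2.12 in the aged libraries and 1.49 and 1.57 in the young libraries, higher in both aged libraries, with a difference of 0.48 on the log2 scale. The common chains of collagen IV, Col4a1 and Col4a2, and the abundant chains of collagen VI had smaller differences. Col4a1 to Col4a2 stood at 1.30 and 1.17 in the aged libraries and 1.30 and 1.27 in the young libraries, a difference of -0.060 with overlapping ages. Col6a1 to Col6a2 stood at 1.08 and 1.03 in the aged libraries and 1.07 and 0.999 in the young libraries, a difference of 0.029, also with overlapping ages. Col6a3 to Col6a1 stood at 0.994 and 1.00 in the aged libraries and 1.09 and 1.18 in the young libraries, a difference of -0.18 with the aged libraries just below the young ones. For Col5a1 to Col5a2 the values were 1.35 and 1.14 against 1.09 and 0.998 (aged against young), a difference of 0.25.

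Ratios between trimers of different classes were added after the values were seen, and are given to show the size of the shift. Col1a1 to Col4a1 was 0.672 and 0.702 in the aged libraries and 1.59 and 1.93 in the young libraries, a difference of -1.35 on the log2 scale. Col3a1 to Col6a1 was 3.02 and 3.47 in the aged libraries and 6.61 and 8.22 in the young libraries, a difference of -1.19. In both, each aged library was below each young library by far more than the replicates of an age differed. Col4a5 to Col4a6 was also lower in both aged libraries, at 0.747 and 0.659 against 1.33 and 1.08 (aged against young), with a difference of -0.77. Col4a3 to Col4a4, of few counts, was at 0.517 and 0.690 against 0.508 and 0.246 (aged against young), a difference of 0.76. Its aged replicate 1 lay just above young replicate 1. Col5a3 to Col5a1 was at 1.16 and 1.697 against 2.80 and 1.81 (aged against young), where aged replicate 1 was lowest and young replicate 1 highest.

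**Figure D4:**
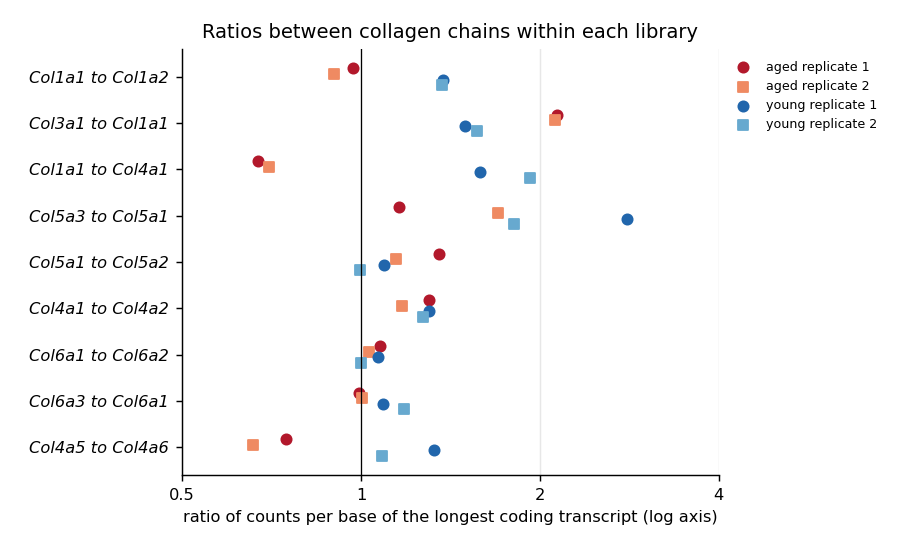
Ratio of collagen chains within each MFP library, in counts per base of the longest coding transcript, on a log axis, with 1 point per library. The ages are apart for Col1a1 to Col1a2 and Col3a1 to Col1a1 and lie together for Col4a1 to Col4a2 and Col6a1 to Col6a2.

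Genes that make, process, bind and degrade collagen were taken from 6 lists. edgeR's quasi-likelihood test called 0 of their genes at an adjusted p of 0.05. When p was not adjusted, 19 of the 89 genes tested were higher and 6 lower at 0.05, beside 7.24% of all genes higher and 3.31% lower. DESeq2 called 9 higher and 1 lower, beside 3.03% and 0.642% of all genes. The count higher was 33 without young replicate 2 and 9 without aged replicate 1, and the count lower was 10 without young replicate 1, 2 without aged replicate 1 and 1 without aged replicate 2. Of the 20 genes for modification and folding, 1 was higher and 1 lower at an unadjusted p under 0.05, and the median was 0.019. Serpinh1, the collagen chaperone HSP47, was at 283 and 440.3 CPM in the aged libraries and 417 and 453 CPM in the young libraries, with a log2 fold change of -0.27 ± 0.27 (SE) that was 0.0048 without aged replicate 1. Plod2, a lysyl hydroxylase that prepares telopeptides for crosslinking, was at 74.1 and 42.8 CPM in the aged libraries and 31.5 and 25.8 CPM in the young libraries, with a log2 fold change of 1.03 ± 0.32 (SE) and an edgeR adjusted p of 0.451. P4ha3, a prolyl hydroxylase subunit, was at 1.10 and 0.371 CPM in the aged libraries and 2.55 and 2.45 CPM in the young libraries, with a log2 fold change of -1.77 ± 0.62 (SE). Plod2 overlaps Gm38391 on the other strand.

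In the list for trimming and crosslinking, 2 of 13 were higher and 1 lower at an unadjusted p under 0.05, beside 7.24% and 3.31% of all genes. Lox, the lysyl oxidase that starts collagen crosslinks, was at 48.8 and 32.2 CPM in the aged libraries and 16.2 and 15.8 CPM in the young libraries. Both aged libraries were above both young ones, with a log2 fold change of 1.34 ± 0.26 (SE) and an adjusted p of 0.370 by edgeR and 0.00202 by DESeq2. Pcolce, an enhancer of the procollagen C-proteinase, was at 47.6 and 41.3 CPM in the aged libraries and 37.9 and 34.8 CPM in the young libraries. Pcolce2, a second enhancer, was at 17.2 and 11.5 CPM in the aged libraries and 4.16 and 6.82 CPM in the young libraries. Aged libraries were above young libraries for both genes. Their log2 fold changes were 0.29 ± 0.16 (SE) and 1.39 ± 0.38 (SE), with edgeR adjusted p of 0.537 and 0.418. Lox overlaps AC161119.1 and Pcolce overlaps Gm36266 on the other strand. Pcolce also overlaps Fbxo24 on the same strand. The gene lower in this list was Adamts14, a procollagen N-proteinase, at 11.2 and 8.56 CPM in the aged libraries and 16.8 and 31.2 CPM in the young libraries.

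The list for breakdown and uptake had the highest median of the 6, 0.85 over 16 tested genes, with 7 higher and 0 lower at an unadjusted p under 0.05, beside 7.24% and 3.31% of all genes. The 7 were Mmp3, Mmp9, Mmp11 and Mmp13 and the protease inhibitors Timp2, Timp3 and Timp4. DESeq2 called 4 genes of the list higher, Mmp3, Mmp9, Timp2 and Timp3, beside 3.03% of all genes. Mmp3, the stromelysin that activates collagenases, was at 18.1 and 20.6 CPM in the aged libraries and 4.05 and 7.49 CPM in the young libraries. Mmp9, a gelatinase, was at 8.35 and 9.49 CPM in the aged libraries and 3.37 and 3.04 CPM in the young libraries. Mmp13, the main interstitial collagenase of mice, was at 0.966 and 1.40 CPM in the aged libraries and 0.134 and 0.461 CPM in the young libraries. Aged libraries were above young libraries for all 3 genes, with log2 fold changes of 1.75 ± 0.37 (SE), 1.48 ± 0.23 (SE) and 1.99 ± 0.71 (SE) and edgeR adjusted p of 0.385, 0.360 and 0.469. Both aged libraries lay above both young ones for 11 of the 16 genes and below them for 1, beside 23.3% and 22.8% of all genes. The 11 included Mmp2, Mmp12, Ctsk and Fap, with log2 fold changes of 0.87, 0.98, 0.76 and 0.40. For Mmp14, Mmp15, Mmp16 and Mrc2 the ages overlapped. Mmp14 was at 103 and 63.0 CPM in the aged libraries and 74.9 and 121 CPM in the young libraries. The log2 fold changes of Mmp14, Mmp16 and Mrc2 were -0.24, -0.83 and -0.063, and that of Mmp15 was 0.11 ± 0.49 (SE). The 4 inhibitors of these proteases did not all lie the same way. Timp1 was at 0.881 and 0.898 CPM in the aged libraries and 1.29 and 2.45 CPM in the young libraries, below the young range in both aged libraries, with a log2 fold change of -1.07 ± 0.45 (SE). Timp4 was at 116 and 43.7 CPM in the aged libraries and 30.3 and 30.1 CPM in the young libraries, with a log2 fold change of 1.40 ± 0.51 (SE). Timp2 was at 173 and 154 CPM in the aged libraries and 87.1 and 95.5 CPM in the young libraries. Timp3 was at 507 and 402 CPM in the aged libraries and 177 and 237 CPM in the young libraries. Timp2, Timp3 and Timp4 were above the young range in both aged libraries, and the log2 fold changes of Timp2 and Timp3 were 0.84 ± 0.14 (SE) and 1.13 ± 0.24 (SE). Timp3 overlaps Syn3 and Timp4 overlaps Syn2 on the other strand. Of 10 macrophage markers, of cells that also make such proteases, 9 had a log2 fold change above 0. Both aged libraries lay above both young ones for 5, beside 23.3% of all genes. The median of the 10 markers was 0.54. Their sum was 358 and 452 CPM in the aged libraries and 588 and 256 CPM in the young libraries, with Lyz2 alone at 374 CPM in young replicate 1, and their part was not tested.

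Fibril partners lay in both directions, with 7 of 16 higher and 3 lower at an unadjusted p under 0.05, beside 7.24% and 3.31% of all genes. Of the 7 small leucine-rich proteoglycans that coat fibrils, 5 had a log2 fold change above 0, and Kera and Fmod had values below 0, -1.69 and -0.29. Dcn, decorin, was at 272 and 248 CPM in the aged libraries and 89.0 and 118 CPM in the young libraries. Ogn, osteoglycin, was at 38.9 and 34.9 CPM in the aged libraries and 15.3 and 15.7 CPM in the young libraries. Neither overlapped between ages, with log2 fold changes of 1.33 ± 0.20 (SE) and 1.25 ± 0.16 (SE), an edgeR adjusted p of 0.360 for both and a DESeq2 adjusted p of 8.99e-05 and 8.69e-07. Bgn and Lum, of the same family, had log2 fold changes of 0.68 ± 0.18 (SE) and 0.63 ± 0.19 (SE). Fn1, fibronectin, on which collagen fibrils are laid down, was at 110.1 and 97.6 CPM in the aged libraries and 297 and 592 CPM in the young libraries, with a log2 fold change of -2.10 ± 0.39 (SE) and an adjusted p of 0.368 by edgeR and 1.05e-04 by DESeq2. Postn, periostin, was at 179 and 136 CPM in the aged libraries and 220.0 and 379 CPM in the young libraries. Kera, keratocan, had few counts, 9 and 5 in the aged libraries and 20 and 22 in the young libraries. It was at 0.110 and 0.0561 CPM in the aged libraries and 0.244 and 0.298 CPM in the young libraries. Postn and Kera were below the young range in both aged libraries, with log2 fold changes of -0.92 ± 0.33 (SE) and -1.69 ± 0.51 (SE). Fn1 overlaps Apol7d on the other strand.

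Of 13 collagen receptors, 1 was higher and 1 lower at an unadjusted p under 0.05, beside 7.24% and 3.31% of all genes. Itga10, an integrin alpha chain of chondrocytes, was at 3.06 and 2.87 CPM in the aged libraries and 4.42 and 8.69 CPM in the young libraries, with a log2 fold change of -1.14 ± 0.41 (SE), and Gp6, the platelet collagen receptor, had 27 and 14 counts in the aged libraries and 2 and 1 in the young libraries. Among the inducers of collagen expression, 1 of 11 tested genes was higher at an unadjusted p under 0.05, near the share of 7.24% over all genes. That gene was Ccn2, connective tissue growth factor, at 30.0 and 53.7 CPM in the aged libraries and 8.72 and 18.3 CPM in the young libraries, with a log2 fold change of 1.63 ± 0.50 (SE) and an edgeR adjusted p of 0.445. Tgfb2, a TGF-beta ligand, was at 14.0 and 13.4 CPM in the aged libraries and 5.01 and 9.68 CPM in the young libraries, with a log2 fold change of 0.90 ± 0.38 (SE). Ccn2 overlaps Gm15270 and Tgfb2 overlaps Gm29491 on the other strand. Itga10 overlaps Gm42957 on the same strand.

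**Figure D5:**
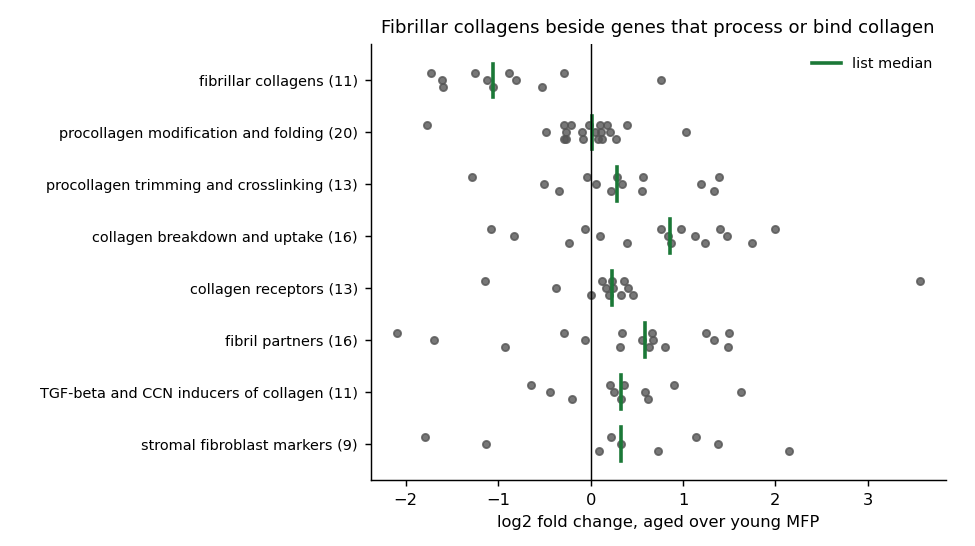
Log2 fold change of aged over young MFP of each gene tested (points) in the fibrillar class, in the 6 collagen pathway lists and among stromal fibroblast markers, with list medians in green and the number of genes in brackets. The median of the fibrillar collagens is -1.05, that of breakdown and uptake 0.85, and the point farthest right is Gp6, with few counts in the young libraries.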

How the data were processed

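Total RNA of whole MFP was depleted of ribosomal RNA and made into directional libraries, from 1000 ng with 9 cycles of amplification per the labels. The authors deposited whole-number counts of reads per gene, not normalized, with 1 column for each of the 4 samples. The submitters' processing notes name featureCounts, R 3.6.1 and the builds GRCm38 and hg38. The aligner, annotation and strand setting are not given in the sources used here, so that reads of genes overlapping on opposite strands may not be separated. Intervals and floors in counts cover counting error only, since reads amplified without molecular identifiers are not independent molecules.

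Samples were grouped by age and replicate number from their titles. With no source stating separate animals, p-values measure the spread between these samples. In R 4.3.3, genes were kept by filterByExpr (22485 of 55487), scaled by TMM and tested with edgeR 4.0.16 (limma 3.58.1) by the quasi-likelihood test, legacy method, on age alone, and p-values were adjusted over all genes by Benjamini-Hochberg with a threshold of 0.05. Standard errors are the log2 fold change divided by the square root of F. DESeq2 1.42.0, the tool of the study, was an alternative, as were other scalings, filters, a replicate block and leaving out each sample. A symbol on several genes (114 symbols) was taken from the one with most counts. Coordinates and overlaps are from GENCODE M21 (GRCm38), which held 55227 of the identifiers. Promoter windows are from RefSeq, which held 35 of the 44 genes. The code was tested on simulated data with 200 changed genes.

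Members, classes and gene lists were chosen with earlier results of these data known. Named by rule were the 2 members of each class with most counts, the 2 with the largest change, the chains of each ratio, the 2 genes of each pathway list with the largest change, and Serpinh1, Lox and Pcolce. The other genes given with values, among them Col5a3, Col27a1, Col12a1, Col4a6, Dcn, Ogn, Mmp9, Timp1, Timp2, Timp3, Timp4, Ankrd1, Sox9 and Adamts14, were chosen after their values were seen. So were the ratios across classes and of Col4a3 to Col4a4, Col4a5 to Col4a6 and Col5a3 to Col5a1.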

Additional observations from a re-analysis of the deposited data

How the results depend on the processing

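Across scalings (RLE, upper quartile, total counts), filters, exclusion of mitochondrially encoded genes, the replicate block and each sample left out, edgeR called 0 collagen genes, 0 pathway genes and 0 of all genes at an adjusted p of 0.05. DESeq2 called 5 collagen genes lower, 9 pathway genes higher and 1 lower, and 697 of all genes higher and 148 lower. At an unadjusted p under 0.05, the collagen genes higher, 2 in the report, were 1 with upper quartile scaling, 1 with total counts, 5 with DESeq2 and from 0 to 9 with samples left out, and those lower, 10 in the report, were from 5 to 17. Pathway genes ran from 9 to 33 higher and 1 to 10 lower with samples left out. All genes higher, 1627 in the report, were 1010 with total counts and from 702 to 3160 with samples left out. All genes lower, 744 in the report, were 1742 with total counts, 1314 with DESeq2 and from 131 to 3528. The cause of these differences was not tested, and a lone sample was assumed to vary like the other age. The labels do not say that same-numbered samples were paired, and those samples deviated in opposite directions (r = -0.48 across 22485 genes, which are not independent). This correlation cannot show whether samples were paired. With the replicate block, unadjusted calls were 1 collagen gene higher and 6 lower, 2 pathway genes lower and 251 of all genes lower. With the crossed replicate block, chosen after seeing the data, there were 2 collagen genes higher and 11 lower. With samples left out, class medians ran from -0.81 to 0.29 in beaded filament, -0.67 to 0.77 in FACIT and -0.078 to 0.78 in basement membrane collagens. They ran from -0.82 to -0.22 in multiplexin, -1.07 to -0.0951 in other and 0.39 to 1.09 in transmembrane collagens. The fibrillar median stayed between -1.29 and -0.82. Signs turned for Col16a1, which was 0.0743 with the replicate block and 0.0741 with the crossed block, for Col23a1, which was -0.0177 with total counts, and for Col6a1 and Col6a2, at -0.0757 and -0.11 with total counts. The sign of Col6a5 also turned, at -0.0140 with the replicate block. With samples left out, ranges crossed 0 for Col16a1 (-0.67 to 0.84), Col23a1 (-0.23 to 0.70), Col4a1 (-0.58 to 0.0216), Col4a2 (-0.44 to 0.00769), Col6a1 (-0.34 to 0.41), Col6a2 (-0.33 to 0.35), Col6a3 (-0.51 to 0.22), Col6a4 (-1.94 to 0.0199), Col8a1 (-1.38 to 0.22) and Serpinh1 (-0.62 to 0.00485). Among the remaining collagen genes, ranges also crossed 0 for Col4a5 (-0.61 to 0.64), Col6a5 (-1.40 to 1.27), Col9a2 (-0.30 to 1.22) and Col9a3 (-0.14 to 0.77). The same held for Col2a1 (-0.66 to 0.13), Col28a1 (-0.78 to 0.23) and Col13a1 (-0.89 to 0.11). Depth limits genes near 3 counts, such as Col10a1.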
